A study of Mus musculus with 4 samples.

Results

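The type I interferon-stimulated genes followed here comprise 39 listed mouse genes, of which 37 had a row among the 32285 genes of the count tables. The dynamin-like GTPase genes Mx1 and Mx2 were not analysed here. The genes were read by single-cell RNA sequencing of mammary tumors in barcodes with at least 1000 UMIs (unique molecular identifiers, each standing for 1 captured RNA molecule) and at most 20% mitochondrial UMIs. The interferon score of a cell is its number of UMIs from the 37 genes per 10000 of its UMIs. Of 23572 such cells, 20272 were placed in 1 of 11 classes by the UMIs of marker genes that are not on the list.

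Type I interferons are secreted by cells that sense viral or misplaced nucleic acid, and they bind the IFNAR receptor on the same and on neighboring cells. The receptor's kinases JAK1 and TYK2 activate transcription factors, which bind the interferon-stimulated response element in the promoters of these genes. Their products degrade or trap viral RNA, block viral entry and release, and feed back on the pathway. The genes serve as a common readout of interferon exposure in tumor cells and in the immune and stromal cells around them.

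All 4 mice carried Frmd8fl/fl, floxed alleles of a gene for a FERM domain protein, together with PyMT, the polyoma middle T oncogene that drives mammary tumors, and tumors were taken at 17 to 18 weeks of age. The Cre- mice (replicates 1 and 3) lacked the MMTV-Cre transgene and the Cre+ mice (replicates 2 and 4) carried it. The MMTV promoter drives Cre mainly in luminal mammary epithelium, and recombination in immune and stromal cells was not tested. Cells had been sorted by flow cytometry before loading, and the gate is not given in the sources used here. Each library was read as 1 mouse from its replicate label, and the paper does not say whether mice were pooled. Frmd8 had 0.243 and 0.241 against 0.0559 and 0.107 UMIs per 10000 in epithelial-gated cells (the 2 Cre- against the 2 Cre+ libraries), 0.250 and 0.241 against 0.197 and 0.139 in macrophage-gated, 0.649 and 0.587 against 0.334 and 0.316 in T cell-gated and 0.163 and 0.181 against 0.143 and 0.113 in fibroblast-gated cells. It was lower in both Cre+ libraries in each of these 4 classes. Counts from the 3′ end need not cover the floxed exons, so these levels are no direct readout of the deletion.

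The response element was looked for in the promoters of the members. RefSeq windows of 300 bases (250 before and 50 after the gene start, build GRCm38.p6) were at hand for 30 of the 37 members. The core of the response element, searched as GAAA, any 2 bases and GAAA again, and on the other strand as TTTC, any 2 bases and TTTC, was present in 16 of the 30 members (53.3%) and in 1079 of the 27025 genes with a window (3.99%). The core of the gamma-activated site, TTCNNNGAA, which reads the same on both strands, was present in 8 of the 30 (26.7%) and in 9.55% of all genes, and overlaps between the motifs were not removed. The 30 bases around the first match are shown on the strand of each gene for 10 members that the results turn on, with the matched bases in capitals (a match that runs past the 30 bases is cut).
Isg15: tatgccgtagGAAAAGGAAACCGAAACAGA
Ifit1: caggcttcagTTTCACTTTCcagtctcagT
Ifit3: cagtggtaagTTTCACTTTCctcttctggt
Ifit3b: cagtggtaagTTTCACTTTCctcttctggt
Rsad2: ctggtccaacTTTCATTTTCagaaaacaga
Oas1a: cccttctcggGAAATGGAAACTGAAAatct
Oas3: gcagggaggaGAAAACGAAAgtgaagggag
Stat2: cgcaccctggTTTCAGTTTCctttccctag
Gbp2: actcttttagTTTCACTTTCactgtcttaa
Bst2: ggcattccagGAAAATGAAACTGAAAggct
Their windows lie at chr4:156200769-156201068 (Isg15, minus strand), chr19:34640639-34640938 (Ifit1, plus), chr19:34583279-34583578 (Ifit3, plus), chr19:34607707-34608006 (Ifit3b, plus), chr12:26456403-26456702 (Rsad2, minus), chr5:120907476-120907775 (Oas1a, minus), chr5:120777610-120777909 (Oas3, minus), chr10:128270248-128270547 (Stat2, plus), chr3:142620413-142620712 (Gbp2, plus) and chr8:71537423-71537722 (Bst2, minus). Isg15, Oas1a, Oas3 and Bst2 carry the first form of the core and the other 6 genes the second. The stretches of Ifit3 and Ifit3b are the same letter for letter. These paralogs are near-identical, so reads may have been split between them or dropped, and their separate values are uncertain. The same holds for Oas1a, the H2 genes and other genes below that belong to families of close copies.

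Isg15 encodes a ubiquitin-like protein that is joined to other proteins during an interferon response. Its 3 overlapping matches begin 78, 72 and 66 bases before the gene start. Ifit1 encodes a protein that binds foreign RNA at its 5′ end, and its 2 matches begin 104 and 85 bases before the start. The 250 bases before the start of each are shown because both genes were among the members that varied most between epithelial cells.
Isg15: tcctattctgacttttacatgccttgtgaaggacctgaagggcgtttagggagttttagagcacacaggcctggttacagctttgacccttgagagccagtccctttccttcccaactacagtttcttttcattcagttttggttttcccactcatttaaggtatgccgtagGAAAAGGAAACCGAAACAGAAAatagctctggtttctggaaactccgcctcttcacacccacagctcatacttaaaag
Ifit1: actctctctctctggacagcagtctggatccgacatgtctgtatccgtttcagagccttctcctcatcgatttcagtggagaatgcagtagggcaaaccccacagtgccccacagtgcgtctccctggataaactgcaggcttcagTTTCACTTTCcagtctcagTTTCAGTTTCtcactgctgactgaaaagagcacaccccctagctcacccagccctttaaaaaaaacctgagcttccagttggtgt
The windows of 14 members, among them Irf7, Ifit2, Oasl2 and Xaf1, held no match, which says only that these letters are not in this stretch.

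The libraries held 4922 and 5918 cells (Cre-) and 5609 and 7123 cells (Cre+), with 107848230 to 134882211 UMIs in these cells and a median of 12455 to 13072.5 UMIs per cell. All deposited barcodes of a library together held 112729231 to 157662955 UMIs. Replicates 1 to 3 were deposited as called cells from Cell Ranger 6.1.2 and replicate 4 with all of its 2582424 barcodes from Cell Ranger 4, so in that library the mouse, the software version and the form of deposit cannot be told apart. Any pair of libraries shared 6 to 16 barcodes. Between 81.1% and 91.2% of the cells of a library were gated. Another 298 to 704 cells per library held at least 3 marker UMIs but met the rule of no class, and were left out. In each library the genes kept back as a check (such as Krt8 for epithelial-gated, C1qa for macrophage-gated and S100a9 for neutrophil-gated cells) stood higher in their own class than in the other gated cells.

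As a mean over cells, the interferon score was highest in neutrophil-gated cells and lowest in NK cell- and B cell-gated cells, with epithelial-gated cells near the bottom. In neutrophil-gated cells the mean score was 48.7, 64.6, 81.0 and 138 per 10000 in Cre- replicates 1 and 3 and Cre+ replicates 2 and 4, the order used for values by library throughout (83.2 ± 39.1, SD, n = 4). Pericyte-gated cells had 43.0, 41.5, 44.2 and 69.4 (49.5 ± 13.3) and macrophage-gated cells, a gate that includes monocytes, 37.4, 39.8, 48.5 and 66.8 (48.1 ± 13.4). Replicate 4 was the highest library in all 3 of these classes.

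Stromal and dendritic classes lay in the middle. Fibroblast-gated cells had 42.2, 45.9, 51.4 and 35 (43.6 ± 6.89), conventional dendritic-gated cells 45.0, 44.8, 27.2 and 52.3 (42.3 ± 10.7) and endothelial-gated cells 39.2, 28.3, 33.4 and 56.1 (39.2 ± 12.1). T cell-gated cells had 23.8, 31.8, 29.1 and 28.8 (28.4 ± 3.33), epithelial-gated cells 19.4, 16.1, 22.0 and 31.6 (22.3 ± 6.68) and NK cell-gated cells 13.5, 16.0, 20.2 and 15.0 (16.2 ± 2.85). B cell-gated cells had 23.5, 12.3, 13.0 and 17.1, from 15, 18, 24 and 77 cells. Among the classes with at least 20 cells in every library, the ranges of all neighbors in this order overlapped. The 22 plasmacytoid dendritic-gated cells had means of 54.6 to 69.8, with 2 to 11 cells per library.

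Set against epithelial-gated cells of the same mouse, the score was higher in 4 of 4 libraries in neutrophil-gated (by 60.9 ± 33.0, SD, n = 4), pericyte-gated (27.2 ± 7.14), macrophage-gated (25.8 ± 7.19), fibroblast-gated (21.3 ± 12.4), conventional dendritic-gated (20.04 ± 10.5) and endothelial-gated cells (16.9 ± 6.27). T cell-gated cells were higher in 3 of 4 libraries (6.1 ± 7.68, p = 0.25 by the exact sign-flip permutation test, two-sided). NK cell-gated cells were lower in 4 of 4 (-6.11 ± 7.41), though by as little as -0.039 in 1 library, and they were higher in 2 of 4 with cells thinned to 2000 UMIs (-4.47, p = 0.5 by the same exact permutation test) or with a median over cells. With 4 mice this exact permutation test cannot go below p = 0.125, the value of every class with 4 libraries on one side, so no class could pass 0.05 before or after adjustment.

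The order changed when the median over cells took the place of the mean. Among the classes with at least 20 cells in every library, pericyte-gated cells then stood first, 29.7 ± 8.66 (SD, n = 4) above epithelial-gated cells of the same mouse, and neutrophil-gated cells followed at 26.2 ± 17.7. Fibroblast-gated cells were at 23.1, macrophage-gated at 17.95 and endothelial-gated at 17.2, and conventional dendritic-gated cells were at 6.16 ± 3.63, each still higher in 4 of 4 libraries. T cell-gated cells were at 1.83 (higher in 3 of 4, p = 0.5 by the exact permutation test) and NK cell-gated cells at -2.97 (higher in 2 of 4, p = 0.5, exact permutation test).

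**Figure D1:**
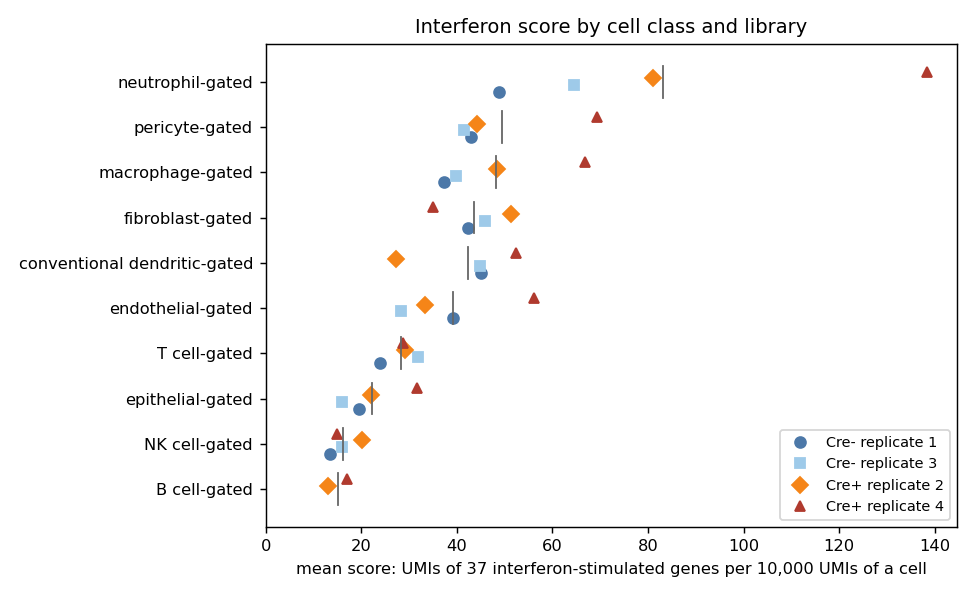
Mean interferon score (UMIs of 37 genes per 10000 UMIs of a cell) by gated class, 1 point per library, with the mean over libraries marked. Neutrophil-gated cells reach from 48.7 to 138 and NK cell-gated cells stay between 13.5 and 20.2.

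Much of this order lay in 4 members, set apart on the premise that many cells make them without interferon, which was not tested here. They are Ifitm3, which blocks viral entry at endosomes, Bst2 (tetherin), which holds budding virus at the membrane, Ifi27l2a, and Lgals3bp, a secreted galectin-binding glycoprotein. They made up 43.3% to 59.3% of the member UMIs of epithelial-gated cells, 60.2% to 70% in macrophage-gated, 73.4% to 85.4% in pericyte-gated and 33.2% to 36.9% in neutrophil-gated cells. Ifitm3 alone had 26.8, 29.9, 29.95 and 37.8 per 10000 in pericyte-gated and 4.74, 6.95, 6.97 and 8.86 in epithelial-gated cells. Without these 4 genes the excess over epithelial-gated cells was 44.5 in neutrophil-gated, 6.44 in conventional dendritic-gated, 5.75 in macrophage-gated and 4.15 in endothelial-gated cells, each in 4 of 4 libraries. In T cell-gated cells it was 4.83, higher in 3 of 4 libraries. It was 0.675 in fibroblast-gated and -0.130 in pericyte-gated cells, each higher in 2 of 4 libraries, and NK cell-gated cells stood at 0.626, higher in 2 of 4.

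**Figure D2:**
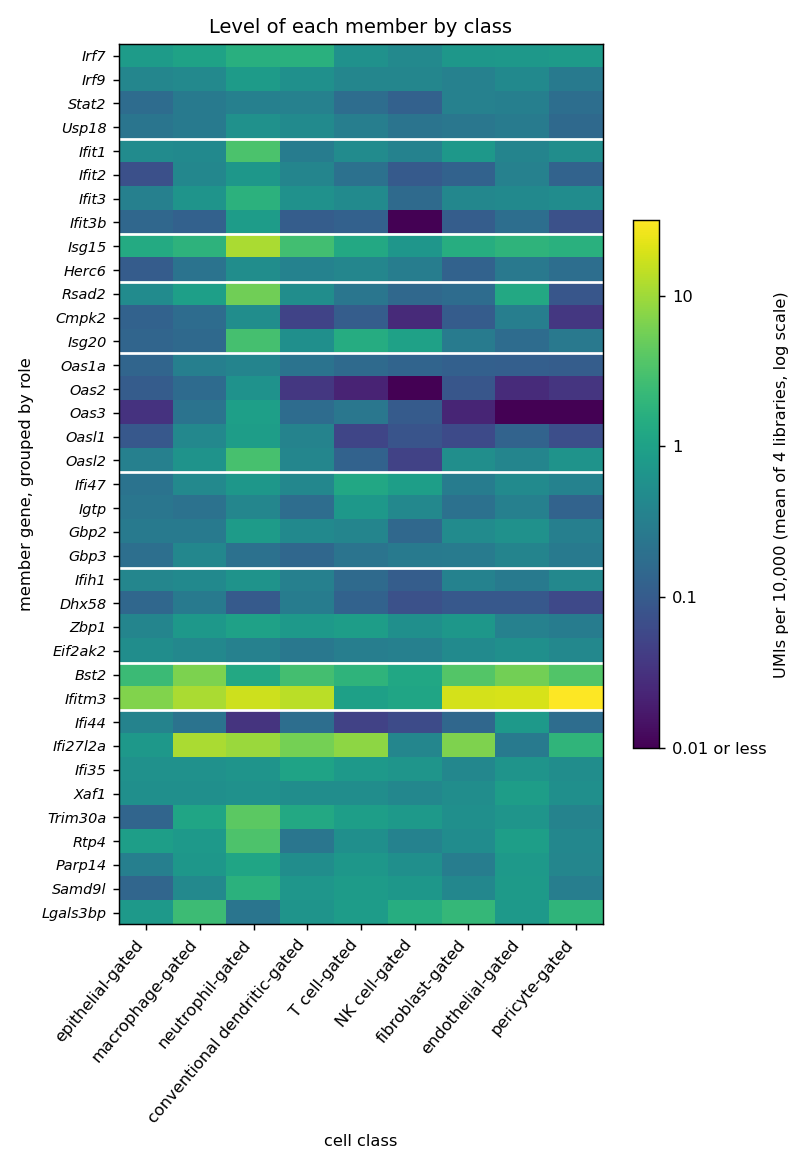
Level of each of the 37 members, grouped by role, in the gated classes (UMIs per 10000, mean over libraries, log color scale). Ifitm3 is high in every class but T cell- and NK cell-gated cells, and neutrophil-gated cells are high for the IFIT, OAS and ISG15 genes.

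Member by member, UMIs summed per library and class were compared with epithelial-gated cells in 1 edgeR quasi-likelihood model with the library as a block, and a gene was called at a Benjamini-Hochberg adjusted p under 0.05. In macrophage-gated cells 21 of 37 members were higher and 0 lower, where 29.3% of the 13674 genes tested were called higher and 32.7% lower. The median log2 fold change was 1.14 over the members and -0.06 over all genes (-0.19 with DESeq2). All 5 genes of the OAS family, some of whose products make the messenger that activates RNase L, were among the members higher. Oas3 had 0.201, 0.141, 0.231 and 0.298 per 10000 in macrophage-gated and 0.0376, 0.00486, 0.0200 and 0.0695 in epithelial-gated cells, so the classes did not overlap (log2 fold change 3.10 ± 0.45 SE, adjusted p = 4.0e-07). Oasl1 (2.41 ± 0.35) and Oas1a (1.64 ± 0.30) followed. Ifi27l2a was higher by 4.75 ± 0.54, with 7.39, 9.37, 14.2 and 14.2 against 0.281, 0.136, 0.377 and 2.12 per 10000, and Trim30a, a gene of the TRIM family, by 3.37 ± 0.27. Both membrane restriction genes were higher, Bst2 by 1.80 ± 0.34 and Ifitm3 by 1.04 ± 0.29.

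The genes most often used to read an interferon response were divided in macrophage-gated cells. Of the IFIT genes, Ifit2 (2.56 ± 0.46, adjusted p = 1.3e-05) and Ifit3 (1.16 ± 0.50, adjusted p = 0.045) were called, the latter not without any 1 of replicates 1 to 3. Ifit1 had 0.221, 0.246, 0.397 and 0.980 per 10000 in macrophage-gated and 0.440, 0.242, 0.393 and 0.884 in epithelial-gated cells, and Isg15 had 0.898, 1.12, 1.33 and 4.04 and 1.02, 0.727, 1.10 and 2.61. The classes overlapped for both, and neither was called (log2 fold changes 0.14 ± 0.44 and 0.67 ± 0.30). Rsad2 (viperin), whose product makes a chain-terminating nucleotide, was called at 1.29 ± 0.50 (adjusted p = 0.027), though not without any 1 of replicates 1 to 3. Of the transcription factors and feedback genes, Stat2 was called (0.99 ± 0.24), and Irf7 (0.66 ± 0.35), Irf9 (0.47 ± 0.21) and Usp18 (0.70 ± 0.35), whose product removes ISG15, were not. The sensor genes Dhx58 (LGP2, 1.26 ± 0.30) and Zbp1 (1.14 ± 0.35) were higher.

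Neutrophil-gated cells had 28 of 37 members higher and 2 lower, where 22.8% of all genes were called higher and 36.1% lower. The median was 1.85 over the members and -0.59 over all genes (-0.28 with DESeq2). All 4 transcription factor and feedback genes, all 4 IFIT genes, both genes of ISG15 and its ligase, all 3 nucleotide enzyme genes and all 5 OAS genes were higher. Isg15 had 6.35, 7.07, 13.1 and 18.6 per 10000, each above the highest epithelial value of 2.61 (3.23 ± 0.33, adjusted p = 6.3e-10). Rsad2 had 1.76, 2.77, 3.53 and 14.3 (3.55 ± 0.56) and Ifit1 1.41, 1.55, 3.02 and 7.07 (2.79 ± 0.49). For these genes replicate 4 was the highest library. Trim30a (5.10 ± 0.30), Oas3 (4.93 ± 0.52) and the exonuclease gene Isg20 (4.54 ± 0.36) differed most. Ifi44 (-3.61 ± 0.65) and Lgals3bp (-1.73 ± 0.44) were lower. These values rest on 252, 87, 32 and 75 cells, with a median of 3593.5 to 3815.5 UMIs per cell.

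In T cell-gated cells 13 members were higher and 6 lower, where 26% of all genes were called higher and 33.6% lower. Ifi27l2a (5.74, 10.7, 7.01 and 8.94 per 10000) and Isg20 (1.11, 1.47, 1.49 and 1.76) were above epithelial-gated cells in every library, with log2 fold changes of 4.17 ± 0.53 and 3.55 ± 0.34. The immunity-related GTPase genes Ifi47 (2.66 ± 0.35) and Igtp (1.87 ± 0.30) were also higher. Ifitm3 had 0.956, 0.891, 1.05 and 1.01 per 10000 (-2.67 ± 0.31), and Ifi44 was lower as well (-2.77 ± 0.37). Within the OAS family Oas3 was higher (3.15 ± 0.48) and both Oas2 (-1.87 ± 0.56) and Oasl2 (-1.22 ± 0.31) were lower. The sensor gene Ifih1 (MDA5, -1.24 ± 0.28) and Eif2ak2, the gene of the kinase PKR (-0.61 ± 0.22), were lower, and Zbp1 was higher (1.29 ± 0.36). Without replicate 4 the count of members higher was 20, where 3899 of 14402 genes were called higher.

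Fibroblast-gated cells had 12 members higher and 2 lower, where 28.4% of all genes were called higher and 29.1% lower. The count higher was 7 without replicate 2 (3594 of 14391 genes) and 20 without replicate 4 (4615 of 14402 genes). Ifi27l2a (3.94 ± 0.52), Trim30a (2.18 ± 0.26), Samd9l (1.73 ± 0.25) and Ifitm3 (1.59 ± 0.30, with 18.4, 20.4, 19.1 and 17.2 per 10000) led. None of the 4 IFIT genes and neither of Isg15 and Herc6 was called, with Ifit1 at 0.622, 0.415, 1.19 and 0.699 per 10000. Rtp4 (-0.69 ± 0.25) and Ifi44 (-1.12 ± 0.29) were lower.

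Endothelial-gated cells had 14 members higher and 3 lower, where 24.8% of all genes were called higher and 29.4% lower. Samd9l (2.47 ± 0.26), Trim30a (2.25 ± 0.27), Ifitm3 (1.45 ± 0.29) and the GTPase genes Gbp2 (1.02 ± 0.35), Gbp3 (1.01 ± 0.41) and Ifi47 (0.97 ± 0.35) were higher. Ifit2 was called (1.51 ± 0.50), with 0.174, 0.0495, 0.0663 and 1.08 per 10000, and had a log2 fold change of 0.33 without replicate 4. Oas2 (-1.85 ± 0.56), Dhx58 (-0.85 ± 0.36) and Ifih1 (-0.64 ± 0.27) were lower.

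The upstream genes of the pathway, from lists outside the members, were read in the same model. All 4 receptor genes (Ifnar1, Ifnar2, Ifngr1 and Ifngr2) were higher in macrophage-, neutrophil-, fibroblast- and endothelial-gated than in epithelial-gated cells, and in T cell-gated cells 2 were higher and 1 lower. Ifnar1 differed by 2.48 ± 0.14 in macrophage-gated and 2.12 ± 0.16 in neutrophil-gated cells. Of 11 signaling genes, 8 were higher and 1 lower in macrophage-gated cells and 9 higher and 0 lower in neutrophil-gated cells. Over all genes tested, 29.3% were called higher in macrophage-gated and 22.8% in neutrophil-gated cells. The shares higher were 26% in T cell-, 28.4% in fibroblast- and 24.8% in endothelial-gated cells, and 29.1% to 36.1% were lower in these classes. Of 9 sensing genes tested, 7 were higher in macrophage-gated cells, among them the RNA sensor gene Tlr7 (7.31 ± 0.47) and the DNA sensor gene Cgas (3.10 ± 0.26). Ddx58 (RIG-I) was not called there (0.00 ± 0.21).

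Among the interferons themselves, transcripts of interferon beta were rare. Ifnb1, the gene of interferon beta, gave 14, 186, 151 and 261 UMIs in macrophage-gated cells, from 8, 43, 57 and 59 cells (0.787, 2.96, 3.48 and 2.64% of the class). In epithelial-gated cells it gave 43, 1, 6 and 79 UMIs, of which single cells held up to 38, 1, 2 and 39. The 1104 T cell-gated cells held 0 UMIs of Ifnb1, a count that limits the cells with a UMI and not those that express the gene. Their median depth in a library was 5705.5 to 11313.5 UMIs and that of macrophage-gated cells 10980.5 to 17168. Ifng, the gene of interferon gamma, was found in 16.4, 22.8, 24.6 and 12.8% of T cell-gated and 35.7, 34.8, 51.7 and 17.1% of NK cell-gated cells, and in 3, 4, 4 and 2 epithelial-gated cells. These counts carry counting error as well as the spread between mice, and neither was tested.

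Among epithelial-gated cells a small share carried most of the transcripts of some members. To find these cells, 2000 UMIs were drawn from each epithelial-gated cell with at least 4000 UMIs, and a cell was placed in the high tail when over 17.8 of them came from members, that is, 5 robust SD above the median of 3. Shallower cells, left out, numbered 256, 331, 228 and 544. The remaining UMIs of the same cells, which took no part in the choice, gave the scores, UMI shares and gene levels of the tail and the rest. Depth and mitochondrial share are those of all UMIs of a cell. The tail held 61 of 2057 cells in Cre- replicate 1 (2.97%, 95% exact Clopper-Pearson interval 2.28 to 3.79) and 39 of 1841 in Cre- replicate 3 (2.12%, 1.51 to 2.88). It held 66 of 2132 cells in Cre+ replicate 2 (3.10%, 2.40 to 3.92) and 134 of 2291 in Cre+ replicate 4 (5.85%, 4.92 to 6.89). Cells at 18 drawn member UMIs, just inside, numbered 7, 4, 13 and 16, and those at 17, just outside, 7, 1, 10 and 13.

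**Figure D3:**
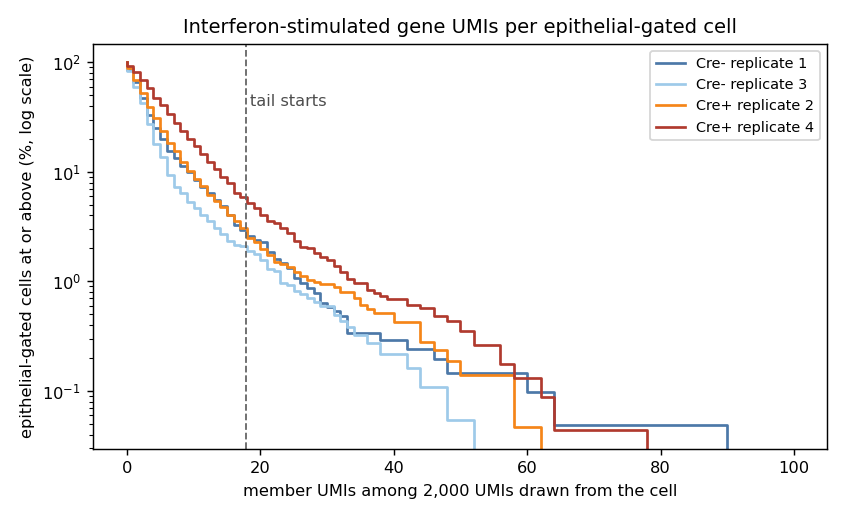
Share of epithelial-gated cells (%, log scale) holding at least a given number of member UMIs among 2000 drawn UMIs, 1 line per library, with the start of the tail at 17.8 marked. At the start of the tail the share is 5.85% in Cre+ replicate 4 and 2.12% to 3.10% in the other libraries.

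The mean score of the tail cells was 131, 128, 129 and 125 per 10000, against 16.6, 13.5, 18.5 and 25.5 in the other epithelial-gated cells. The same cut chose the tail in every library, so the likeness of its scores between mice is partly set by the choice. The tail cells held 16.6, 17.9, 18.1 and 23.6% of the member UMIs and 2.37, 2.27, 2.74 and 6.04% of all UMIs. Their median depth was 27907, 26511, 17991 and 21352 UMIs and that of the others 29480, 27161.5, 16754 and 20408, and the median mitochondrial share was 5.81, 4.46, 6.14 and 3.56% and 6.16, 5.64, 7.10 and 3.81%.

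Since members chose the tail, their values there are a description. All 37 members were higher in the tail in each of the 4 libraries, by 1.74-fold (Irf9) to 158-fold (Ifit3), with a median of 8.03-fold over members and libraries. The IFIT genes and viperin were the most concentrated. The tail held 56.4, 78.6, 66.3 and 65.9% of the Ifit3 UMIs and 61.7, 66.9, 60.7 and 57.1% of those of Rsad2. Rsad2 was seen in 69.7% to 79.5% of the tail cells and in 8.21% to 27.2% of the others. Isg15 stood at 12.4, 13.6, 12.6 and 14.3 per 10000 in the tail and 0.745, 0.422, 0.772 and 1.87 in the rest.

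At the other end were the subunit gene Irf9, with 5.11, 6.59, 5.58 and 10.1% of its UMIs in the tail, and the kinase gene Eif2ak2 with 6.89, 6.79, 9.45 and 13.9%. Ifitm3 was found in 88.2% to 94.9% of the cells outside the tail, and stood at 4.27, 6.29, 6.13 and 7.79 per 10000 in the rest and 24.2, 34.4, 35.1 and 25.8 in the tail. Irf7, which amplifies the response, had 5.10, 3.21, 5.96 and 4.45 in the tail and 0.615, 0.201, 0.744 and 1.23 in the rest. The 4 IFIT genes summed to 19.3, 12.1, 17.7 and 17.7 per 10000 in the tail and 0.515, 0.195, 0.391 and 0.870 in the rest.

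**Figure D4:**
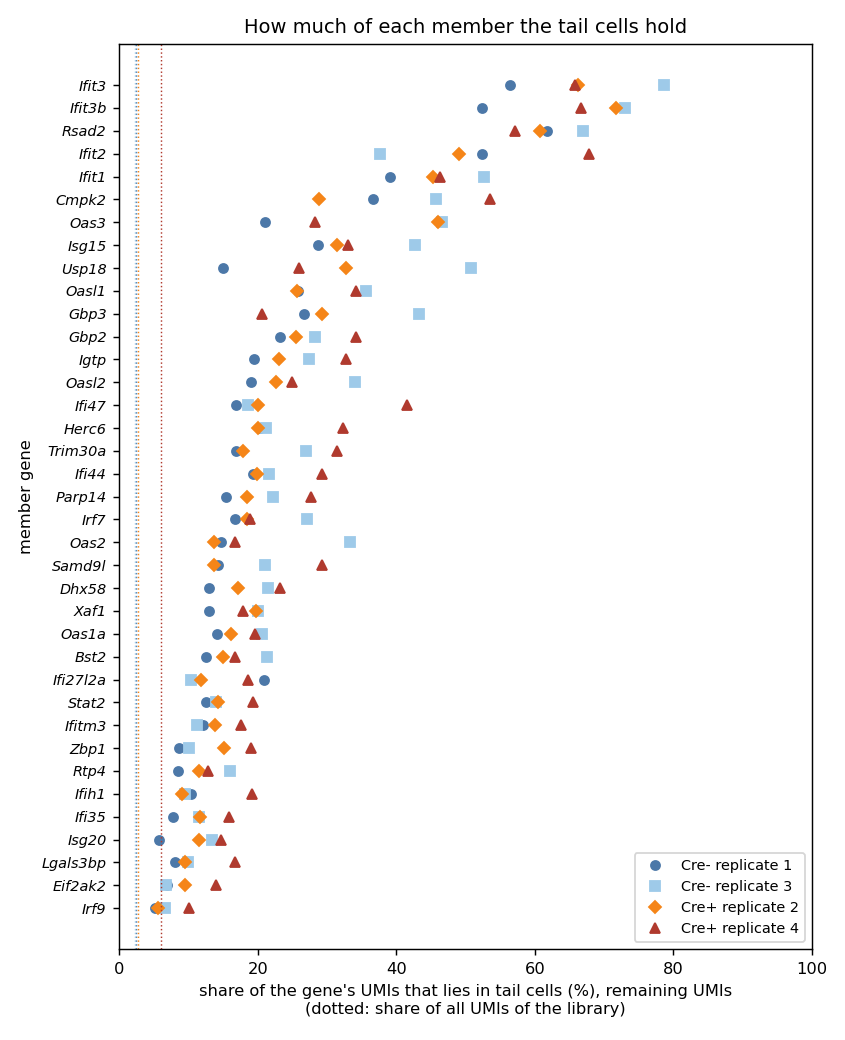
Share of each member's remaining UMIs that lay in tail cells (%), for 37 members in 4 libraries, with the tail's share of all UMIs marked for each library. Ifit3 lies between 56.4% and 78.6% and Irf9 between 5.11% and 10.1%.

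Outside the list, 295 of 15692 genes (1.88%) were higher and 85 (0.542%) lower in the tail than in the other epithelial-gated cells, by edgeR with the library as a block. The genes with the largest increase were largely other interferon-induced genes: the IFIT relative Ifit1bl1 (6.04 ± 0.48, adjusted p = 3.7e-05), the GTPase genes Gm4841 (5.89 ± 0.56), Gm5431 (5.02 ± 0.54), Tgtp1 (4.94 ± 0.47), Iigp1 (4.23 ± 0.23), Gbp5 (4.45 ± 0.56) and Gbp4 (4.23 ± 0.56), and Ifi208 (4.61 ± 0.80) and Phf11b (4.17 ± 0.31). Cxcl10, a chemokine gene that recruits T cells, had 0.323, 1.71, 0.0675 and 1.12 per 10000 in the tail and 0.0117, 0.0568, 0.0131 and 0.0487 in the rest (4.49 ± 0.28, adjusted p = 6.5e-06), but 1.30 with upper limits of 5000 genes and 30000 UMIs on cells, where it was not called. Ccl5 was higher in the tail of all 4 libraries (4.03 ± 0.50), though its log2 fold change was -0.44 under those limits.

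All 8 genes of antigen presentation on MHC class I were higher in the tail. These were the peptide transporter genes Tap1 (2.09 ± 0.13, adjusted p = 7.1e-06) and Tap2 (1.16 ± 0.09), the immunoproteasome genes Psmb8 (1.45 ± 0.11) and Psmb9 (1.64 ± 0.09), the transactivator gene Nlrc5 (2.35 ± 0.30), B2m (1.33 ± 0.13), H2-D1 (0.79 ± 0.10) and H2-K1 (0.75 ± 0.09). Without the library as a block Nlrc5, B2m and both H2 genes were not called. B2m had 14.6, 13.9, 13.2 and 14.7 per 10000 in the tail and 5.44, 3.95, 5.81 and 8.45 in the rest, without overlap. Their sum was 56.5, 46.6, 48.7 and 49.3 in the tail and 27.0, 19.1, 24.6 and 31.8 in the rest.

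Signaling and sensing genes were called in part. Of the signaling genes, Irf1 (0.78 ± 0.13) and the feedback inhibitor gene Socs1 (1.46 ± 0.24) were among those higher, and of 9 sensing genes tested the RNA sensor genes Ddx58 (2.06 ± 0.15) and Tlr3 (1.61 ± 0.14) and the adaptor gene Myd88 (0.62 ± 0.10). None of the 4 receptor genes was called, with Ifnar1 at 0.23 ± 0.13 and Ifnar2 at 0.31 ± 0.08. Ifnb1 was not called, and 1 cell of Cre- replicate 1 held 38 of the 43 UMIs in the epithelial-gated cells of that library. Of the 6 genes that lean on interferon gamma, Cd274 (PD-L1, 3.79 ± 0.30), Gbp5 and Irf1 were higher. Cxcl9 had a log2 fold change of 2.84 ± 0.75 (adjusted p = 0.095) and UMIs in the tail of Cre+ replicate 2 only, and Ciita one of 0.55 ± 0.49. Ido1 was lower (-5.32 ± 0.73), but 0.13 with a tail from 3 robust SD, and Cre+ replicate 4 held no Ido1 UMI in either group.

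Genes that mark kinds of mammary epithelium differed in part. Of the 6 hormone-sensing genes, 5 were lower: the receptor genes Pgr (-2.47 ± 0.48) and Prlr (-1.45 ± 0.30), the transcription factor gene Foxa1 (-2.45 ± 0.51), Cited1 (-2.72 ± 0.59) and the growth factor gene Areg (-2.62 ± 0.53), with Esr1 at -1.23 ± 0.45 (adjusted p = 0.25). Their sum was 1.35, 0.531, 0.500 and 0.455 per 10000 in the tail and 8.08, 1.03, 3.66 and 0.602 in the rest. The gap was wide in Cre- replicate 1 and Cre+ replicate 2, and in Cre+ replicate 4 Pgr, Cited1, Foxa1 and Esr1 were not lower. None of the 5 was called by DESeq2. In the other lists 2 of 6 alveolar (Csn2 and Csn3), 2 of 6 basal (Krt14 and Krt17) and 1 of 5 luminal progenitor genes (Cd14) were higher and 0 were lower. The luminal progenitor genes summed to 119, 119, 170 and 70.4 per 10000 in the tail and 99.1, 128, 120 and 47.1 in the rest, lower in the tail of Cre- replicate 3. The casein gene Csn3 (0.54 ± 0.08), the basal keratin genes Krt14 (0.87 ± 0.13) and Krt17 (1.08 ± 0.20) and Cd14 (0.50 ± 0.09) were higher in all 4 libraries. Csn2 was called (1.44 ± 0.25) on the UMIs of Cre+ replicate 4, the one library with a Csn2 UMI in the tail. With the upper limits on cells none of these 5 genes was called higher. Csn2 was then called lower (-1.63, adjusted p = 0.026 by edgeR), and Krt17 was at -0.10. None of the 4 cycling and 3 hypoxia genes was called.

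The other genes with the largest decrease were Fgb (-5.29 ± 0.34), Agtr1a (-5.17 ± 0.71), Sytl2 (-5.16 ± 1.00), Fgfr2 (-4.91 ± 0.76) and Slc35f3 (-4.87 ± 0.74), all with most of their UMIs in Cre- replicate 1 and Cre+ replicate 2. No tail held more than 0.0382 per 10000 of any of them, so the sizes of these changes are uncertain. Reg3b, Dmbt1 and Tph1 gave 0 UMIs in all 4 tails, and in the rest Reg3b stood at 0.166, 0.0130, 0.15 and 0 per 10000. Scgb1b27 was lower in all 4 libraries (-5.82 ± 0.26), but its level in the rest was 0.0248, 0.0408 and 0.130 in replicates 1, 3 and 2 and 16.0 in replicate 4.

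Markers of other classes were read in the same cells. The markers of the epithelial gate summed to 46.6, 33.8, 41.6 and 41.1 per 10000 in the tail and 47.3, 36.9, 35 and 38.2 in the rest. Those of the macrophage gate were at 1.89, 1.43, 2.17 and 1.36 in the tail and 1.04, 1.03, 1.95 and 1.03 in the rest, higher in the tail of all 4 libraries. The macrophage genes kept back as a check summed to 1.11, 3.45, 0.695 and 3.48 in the tail and 0.897, 0.988, 1.33 and 1.49 in the rest, lower in the tail of Cre+ replicate 2. The check genes of conventional dendritic cells (0.915, 2.47, 3.24 and 4.79 against 0.791, 1.23, 2.35 and 1.36) and the gate markers of plasmacytoid dendritic cells (0.0861, 0.0202, 0.0270 and 0.00758 against 0.0270, 0.0133, 0.0141 and 0.00454) were higher in all 4 tails. The gate markers of conventional dendritic cells were higher in the tail of 2 libraries (0.0108, 0.0202, 0.101 and 0.0101 against 0.0185, 0.0292, 0.0405 and 0.00714). The check genes of plasmacytoid dendritic cells were higher in 3 (0.646, 0.518, 0.925 and 1.65 against 0.635, 0.606, 0.879 and 1.52). Gate markers of fibroblasts and of endothelial cells were lower in all 4 tails. S100a8 and S100a9, the check genes of neutrophils, summed to 2.92, 7.12, 0.209 and 5.06 and 0.457, 0.836, 0.372 and 2.75. The T cell gate markers were at 0.301, 0.229, 0.0135 and 0.384 and 0.115, 0.0703, 0.0433 and 0.344. Their part in the profile of the tail was not tested.

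The genotypes were compared to ask whether the members differ between tumors with and without MMTV-Cre. In epithelial-gated cells the mean score was 19.4 and 16.1 against 22.0 and 31.6 per 10000 (Cre- against Cre+), without overlap. The means were 17.7 ± 2.39 and 26.8 ± 6.77 (SD, n = 2 each) and the difference 9.08. Macrophage-gated cells (37.4 and 39.8 against 48.5 and 66.8), neutrophil-gated cells (48.7 and 64.6 against 81.0 and 138) and pericyte-gated cells (43.0 and 41.5 against 44.2 and 69.4) did not overlap either, with differences of 19.1, 53.1 and 14.5. The genotypes overlapped in endothelial-gated (39.2 and 28.3 against 33.4 and 56.1), T cell-gated (23.8 and 31.8 against 29.1 and 28.8), fibroblast-gated (42.2 and 45.9 against 51.4 and 35), conventional dendritic-gated and NK cell-gated cells. With 2 mice against 2, an exact permutation test (two-sided) cannot go below p = 0.333, so no class could pass.

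Cre+ replicate 4 held much of these differences. Without it they were 4.29 in epithelial-gated, 9.88 in macrophage-gated, 24.3 in neutrophil-gated and 1.93 in pericyte-gated cells. Without the 4 members Ifitm3, Bst2, Ifi27l2a and Lgals3bp, the genotypes overlapped in epithelial-gated (11.6 and 6.53 against 11.1 and 16.4) and pericyte-gated cells and did not in macrophage-gated (14.0 and 12.4 against 15.8 and 26.3) and neutrophil-gated cells.

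Gene by gene, edgeR called 0 of 37 members and 0 of 16358 genes (0%) between genotypes in epithelial-gated cells, and DESeq2 called 50 genes and 0 members. In simulated data this comparison recovered 2% of 2-fold and 26% of 4-fold changes, so a count of 0 does not show that the members are unchanged. At an unadjusted p under 0.05, 1 member was higher and 0 lower, where 1.48% of all genes were higher and 0.917% lower. The median log2 fold change was 0.72 over the members and 0.02 over all genes, and 0.18 over the members without replicate 4. Both Cre+ libraries lay above both Cre- libraries for 12 of 37 members and below them for 0, where 12.5% and 15.8% of all genes did so. Irf7 had 0.726 and 0.271 against 0.899 and 1.42 per 10000 (1.29 ± 0.57), Isg15 1.02 and 0.727 against 1.10 and 2.61 (1.18 ± 0.52) and Ifitm3 4.74 and 6.95 against 6.97 and 8.86 (0.51 ± 0.31). In Irf7, Isg15 and Ifitm3 the libraries did not overlap, though Cre+ replicate 2 lay within 0.2 of a Cre- library in each. Ifit1 (0.440 and 0.242 against 0.393 and 0.884), Rsad2 (0.427 and 0.178 against 0.234 and 1.11) and Oasl2 (0.331 and 0.157 against 0.317 and 0.546) overlapped, since Cre+ replicate 2 lay below Cre- replicate 1. Ifi27l2a, the 1 member under 0.05 unadjusted, had 0.281 and 0.136 against 0.377 and 2.12 (2.70 ± 0.97), with replicate 4 alone far above the rest.

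In macrophage-gated cells edgeR called 0 of 37 members and 0 of 13219 genes (0%), and DESeq2 called 9 genes and 0 members. At an unadjusted p under 0.05, 19 members were higher and 0 lower, where 0.961% of all genes were higher and 0.817% lower. The median was 0.78 over the members and 0.02 over all genes. Both Cre+ libraries lay above both Cre- libraries for 32 of 37 members and below them for 0, where 6.32% and 18.6% of all genes did so. The members are read in the same cells of the same 4 mice and are not separate observations of the genotype. Ifit1 had 0.221 and 0.246 against 0.397 and 0.980 per 10000 (1.72 ± 0.50) and Isg15 0.898 and 1.12 against 1.33 and 4.04 (1.57 ± 0.60), both with replicate 4 far above replicate 2. Oasl2 (0.451 and 0.435 against 0.703 and 0.887, 0.97 ± 0.23), Ifi47 (0.320 and 0.310 against 0.502 and 0.640, 0.99 ± 0.23) and Ifi27l2a (7.39 and 9.37 against 14.2 and 14.2, 0.87 ± 0.27) were apart in both Cre+ libraries. Rsad2 (0.556 and 0.547 against 0.562 and 2.12) stood out in replicate 4 alone. Without Cre+ replicate 2, 27 members were called higher, where 1179 of 13714 genes were called (559 higher and 620 lower). Without replicate 4, 0 members and 3 of 13592 genes were called, with a median of 0.38 over the members. With no filter on low counts, 1 member and 20 of 20124 genes were called.

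**Figure D5:**
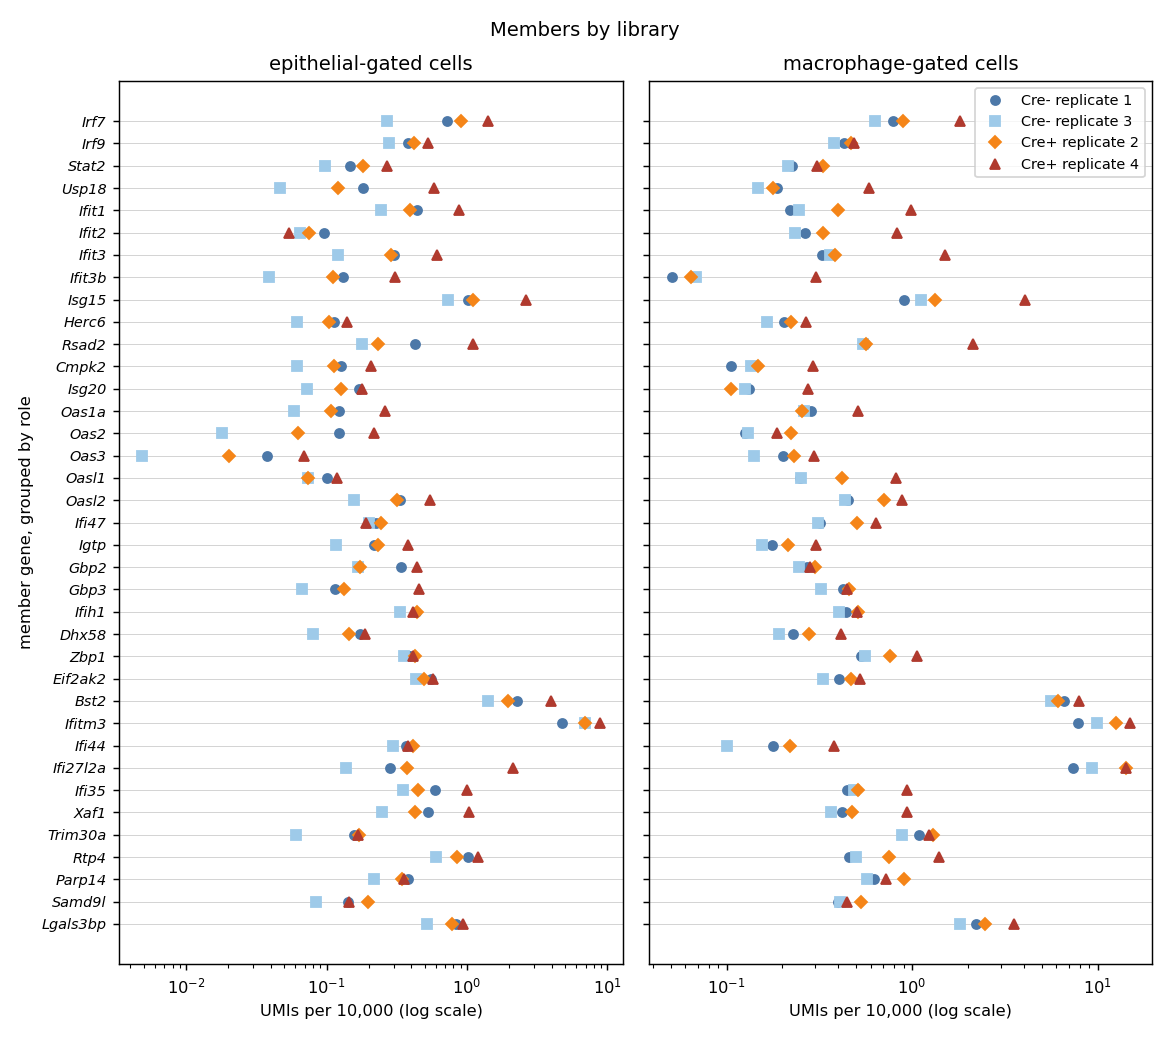
Level of each of the 37 members in epithelial-gated (left) and macrophage-gated cells (right), in UMIs per 10000 on a log scale, 1 point per library colored by genotype. Both Cre+ points lie above both Cre- points for 12 members on the left and 32 on the right.

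In T cell-gated cells edgeR called 0 of 36 members tested and 1 of 9583 genes (0.0104%), and DESeq2 called 4 genes and 0 members. At an unadjusted p under 0.05, 1 member passed and was higher, where 1.67% of all genes were higher and 2.43% lower. The median was 0.08 over the members and 0.01 over all genes. Both Cre+ libraries lay above both Cre- libraries for 8 members and below for 3, where 10.4% and 21.9% of all genes did so. Isg15 had 0.923 and 1.22 against 1.71 and 1.41 per 10000 (0.63 ± 0.25) and Ifi27l2a 5.74 and 10.7 against 7.01 and 8.94, which overlapped. No receptor, signaling or sensing gene was called between genotypes in any of the 3 classes.

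The share of epithelial-gated cells in the high tail was 2.54% ± 0.599 in the Cre- and 4.47% ± 1.95 in the Cre+ libraries (SD, n = 2 each). The gap between these means was 1.93 percentage points (p = 0.333, the smallest value that the exact permutation test can give). Cre- replicate 1 (2.97%) and Cre+ replicate 2 (3.10%) lay close together, within each other's intervals. These intervals cover counting error only and not the spread between mice. With the start of the tail kept at 17.8 drawn UMIs and Cre+ replicate 4 left out, an alternative chosen after seeing the data, the gap was 0.554 points. With the score without the 4 members Ifitm3, Bst2, Ifi27l2a and Lgals3bp, the shares were 4.86% and 2.01% against 3.99% and 8.38%, and the genotypes overlapped (a gap of 2.75 points, p = 0.667 by the exact permutation test). With a tail from 3 robust SD they were 7.29% and 4.02% against 7.46% and 14.6%, a gap of 5.36 points. By the threshold of 17.8 drawn UMIs, 10.9 and 12.1 against 17.0 and 25.7% of macrophage-gated cells (Cre- against Cre+) were over it. The shares of T cell-gated cells were 5.36 and 7.12 against 6.22 and 6.75%, where the genotypes overlapped. With the score without the 4 members, whose threshold was 8.41 drawn UMIs, the macrophage-gated shares were 7.54 and 5.01 against 7.15 and 15.3%. These overlapped as well.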

How the data were processed

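Single cells of mouse mammary tumors, sorted by flow cytometry, were profiled in 4 libraries on the 10x Chromium 3′ platform. The values are counts of UMIs per gene and barcode as deposited by the authors, from Cell Ranger 6.1.2 (replicates 1 to 3, called cells) and Cell Ranger 4 (replicate 4, all barcodes) per the file headers. The submitters' processing notes name hg38, whereas the gene identifiers are those of mouse. The members and lists were chosen with earlier results of these data known.

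Cells were placed in a class when they had at least 3 UMIs from at least 2 marker genes of the class and these made up at least 60% of their marker UMIs. Doublets were treated only by leaving out cells in which no class reached 60% of the marker UMIs, and no doublet caller was run. UMIs were summed per library and class (at least 20 cells, 38 sums) and tested with edgeR 4.0.16 (TMM, filterByExpr, quasi-likelihood test, Benjamini-Hochberg adjustment, threshold 0.05), with DESeq2 1.42.0 as an alternative, in R 4.3.3. Fold changes are log2 with their standard error. Scores were compared with exact permutation tests in Python 3.11.15 with scipy 1.17.1. Each script was tested on simulated data. There the genotype tests recovered 2% of 2-fold changes in epithelial-, 18% in macrophage- and 12% in T cell-gated cells. Of 4-fold changes they recovered 26%, 77% and 76%. P-values between genotypes measure the spread between mice, with each library read as 1 mouse. With the library as a block, those of the class and tail tests measure how far the differences within a mouse vary between mice. In the class model this spread is pooled over the 38 sums. With 4 libraries of 107848230 to 134882211 UMIs in the cells used, the number of mice limits the precision more than depth does, except in rare genes and small classes.

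Members named in a comparison were, in each role group, up to 3 with the largest fold change among called members or those with the most UMIs. Outside the list they came from the pathway lists and, in the tail, were up to 10 called genes with the largest change in each direction. Other members named with the classes and genotypes were chosen after their values were seen. Alternatives were the deeper barcodes of replicate 4 (at least 10978 UMIs), limits of 200 to 5000 genes and under 30000 UMIs, a gate at 80%, a score without 4 members, on cells thinned to 2000 UMIs or as a median, a tail from 3 robust SD, no filter on low counts, no replicate block, and leaving out each library.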

Additional observations from a re-analysis of the deposited data

Results flagged for a closer look

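Barcodes of at most 100 UMIs, which are too shallow to be cells, were deposited for Cre+ replicate 4 and enter no comparison. They numbered 2078989 and held 4981956 UMIs, of which 23067 came from members, or 46.3 per 10000 (95% exact interval 45.7 to 46.9, for counting error only). This result stands here because it is a signal in data outside the main measurement. The level lay above the mean score of epithelial-gated (31.6) and NK cell-gated cells (15.0) of the same library and below that of macrophage-gated cells (66.8). Ifitm3 gave 12.6 per 10000, Ifi27l2a 8.76, Bst2 4.73, Isg15 3.52 and Lgals3bp 1.49. The part of free RNA in the scores of gated cells was not tested.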

How the results depend on the processing

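With 2 mice per genotype, the differences in score between genotypes kept their direction under all alternatives in epithelial-, macrophage-, neutrophil- and pericyte-gated cells, where leaving out each library gave 4.29 to 13.9, 9.88 to 28.3, 24.3 to 81.8 and 1.93 to 27.1 per 10000. In the classes whose genotypes overlapped they turned. In conventional dendritic-gated cells the difference was 2.45 as a median over cells and -17.7 to 7.39 without each library, and in T cell-gated cells -2.90 to 5.10 without each library. In NK cell-gated cells it was -0.727 as a median, in fibroblast-gated cells 0.991 without the 4 members and -9.13 to 7.29 without each library, and in endothelial-gated cells -0.328 to 22.3 without each library. Against epithelial-gated cells, NK cell-gated cells stood at 0.626 and pericyte-gated cells at -0.130 without the 4 members. The share of cells in the tail differed between genotypes by 1.51 to 3.31 percentage points without each library. Without replicate 4 the start of the tail moved to 9.41 drawn UMIs (2.58 points), and with the start kept, an alternative chosen after seeing the data, the difference was 0.554. It was 2.75 without the 4 members, with overlap, and 5.36 with a tail from 3 robust SD.

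Members called between genotypes in macrophage-gated cells numbered 1 with no filter on low counts (20 of 20124 genes) and 0 to 27 without each library (1179 of 13714 genes for the 27, without replicate 2), where the lone library of a genotype is assumed to vary like the others. Members called higher against epithelial-gated cells numbered 10 to 20 in T cell-gated and 7 to 20 in fibroblast-gated cells without each library. For T cell-gated cells 3079 of 13288 genes were higher beside the 10 members and 3899 of 14402 beside the 20. For fibroblast-gated cells 3594 of 14391 genes were higher beside the 7 members and 4615 of 14402 beside the 20. In the tail, genes called higher numbered 187 with the upper limits on genes and UMIs and 453 with DESeq2. Genes called lower numbered 24 with the upper limits, 148 without the 4 members and 24 to 146 without each library. Ido1 was at 0.13 with a tail from 3 robust SD, and Ccl5 at -0.44, Csn2 at -1.63 (called lower) and Krt17 at -0.10 with the upper limits. The causes were not tested.

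The library served as a block between classes of the same mouse. With no replicate block, 106 genes were called higher and 0 lower in the tail. Members called higher then numbered 18 of 37 in macrophage- and 24 in neutrophil-gated cells, where 3752 and 3055 of 13674 genes were higher. They numbered 11 in T cell-, 9 in fibroblast- and 11 in endothelial-gated cells, where 3353, 3608 and 3197 of the 13674 genes were higher. No paired analysis was possible between genotypes because each library has its own replicate number.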
